A study of Rattus norvegicus with 20 samples.

Results

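The response of cultured rat cortical microglia to PAM3CSK4 was described across genes by setting the 4 libraries of cells treated with PAM3CSK4 (1 ng/mL) against the 4 libraries of cells given phosphate-buffered saline (PBS). These are 8 of the 20 libraries of the series, chosen by their labels alone. Genes were kept where at least 4 of the 20 libraries reached 1 FPKM (fragments scaled by transcript length and by the library's total), which left 8858 of 17310 genes. All cells came from perfused male Sprague-Dawley rats aged 21 days. CD11b-positive myeloid cells were immunopanned from brain without cerebellum, held 5 days in medium without serum, and then treated through a 50% medium change. How long the cells were treated before lysis is not stated in the labels. The other 12 libraries, 4 each, were from cells given LPS (1 ng/mL), zymosan (at 100 ug/mL) or the opioid morphine (at 1 uM). They served to estimate the spread and to set PAM3CSK4 against each of these treatments in turn.

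PAM3CSK4 is a synthetic lipopeptide that mimics the acylated amino terminus of bacterial lipoproteins. It is bound by Toll-like receptor 2 (TLR2) paired with TLR1, whose cytoplasmic domains recruit the adaptor MyD88 and the IRAK kinases. From there NF-kB and the MAP kinases are activated, and genes of cytokines, chemokines and their own feedback inhibitors are transcribed. Microglia are the resident macrophages of the brain. In their resting state they depend on the receptor CSF1R and express genes such as Cx3cr1 and P2ry12.

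The libraries had these properties before any comparison. The steps between the lowest values gave each library's relative depth: 59.2% to 88.1% of the deepest library (PBS 2) in PAM3CSK4, and 55.8% to 100% in PBS. The 88.1% of PAM3CSK4 1 rested on 30 of 379 low genes compared, against 108 to 123 of 775 or 776 in PAM3CSK4 2 to 4. PAM3CSK4 1 had 9397 genes above 0, against 10247 to 10303 in PAM3CSK4 2 to 4. PAM3CSK4 1 and PBS 1 stood apart from the other 6 libraries, within a set of 7 that held replicate 1 of every group, Morphine 2 and LPS 2, so that 13 libraries form the larger set. The 18S ribosomal RNA gene Rn18s was listed at 0 in both PAM3CSK4 1 and PBS 1, against 2657.7 to 5126 FPKM in the other 6. Of the rest of the set of 7, Morphine 1, Morphine 2, LPS 2 and Zymosan 1 were at 0 as well, but LPS 1 was at 6243.75 FPKM. Same-numbered PAM3CSK4 and PBS libraries deviated together. A fit blocked on the replicate number (the replicate block) is therefore given where it changes a call or moves a count by over 1.5 times. It was fitted to all 20 libraries, so each number's effect was shared by all 5 groups. Replicate 2 was split across the groups, with Morphine 2 and LPS 2 in the smaller set and PAM3CSK4 2, PBS 2 and Zymosan 2 in the larger. The 9 microglia and macrophage markers summed to 794 to 865 FPKM in PAM3CSK4 libraries, against 1318 to 1571 FPKM in PBS libraries. Among them Cx3cr1, Csf1r, P2ry12 and Tmem119 fell, while Ptprc had 113 FPKM in PAM3CSK4 libraries and 111 FPKM in PBS libraries. Defining markers of neurons (Rbfox3, Syt1), astrocytes (Gfap, Aqp4), oligodendrocytes (Mog, Mag), endothelium (Cldn5, Kdr) and neutrophils (Mpo, Elane) were listed at 0 in all 8 libraries. The neuron list summed to 9.51 to 24.9 FPKM with PAM3CSK4, against 2.9 to 6.59 FPKM with PBS, almost all through Tubb3 and Snap25, which were both called higher. Map2 added at most 0.15 FPKM with PAM3CSK4 and was at 0 with PBS. The endothelial list summed to 11.3 to 23.8 FPKM with PAM3CSK4, against 11.1 to 30.3 FPKM with PBS, and 3 of its 4 tested genes were called lower. The other, Flt1, was not called, at 9.6, 16.8, 17.9 and 19.3 FPKM with PAM3CSK4 and 3.77, 7.13, 9.0 and 10.4 with PBS. The astrocyte list summed to 0.648 to 2.28 FPKM with PAM3CSK4, against 1.29 to 4.52 FPKM with PBS, and its 1 tested gene was not called. The oligodendrocyte list summed to 9.17 to 23.1 FPKM with PAM3CSK4, against 22 to 37.6 FPKM with PBS, with 1 of 2 tested genes called lower, and its precursors' list to 0.626 to 2.19 FPKM, against 4.04 to 8.27 FPKM, with its 1 tested gene called lower. The monocyte and neutrophil list summed to 1.69 to 4.24 FPKM with PAM3CSK4, against 0.591 to 3.38 FPKM with PBS, with 1 tested gene called higher and 1 lower. The part of other cell types in the results was not tested. In bulk RNA fewer cells of a type and less RNA per cell cannot be told apart.

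The stretches of DNA just before the transcription starts of responding genes are shown first, since they hold short motifs bound by known factors. The windows are the 250 bases before each start, from RefSeq's rat assembly GRCr8, written 5′ to 3′ on the gene's own strand. Capitals mark the matches, on either strand, of the motif named for that group of genes, and matches of the other motifs are left in lower case. Of the 8858 tested genes 7323 had a window. The first 3 belong to genes with large increases that carry the 10-base kappaB motif, the binding site of NF-kB. They are the neutrophil chemokine Cxcl1 (chr14:17479322-17479571, minus strand), the cytokine Il6 (chr4:5894576-5894825, minus strand) and the iron-sequestering protein gene Lcn2 (chr3:36081781-36082030, minus strand).
Cxcl1: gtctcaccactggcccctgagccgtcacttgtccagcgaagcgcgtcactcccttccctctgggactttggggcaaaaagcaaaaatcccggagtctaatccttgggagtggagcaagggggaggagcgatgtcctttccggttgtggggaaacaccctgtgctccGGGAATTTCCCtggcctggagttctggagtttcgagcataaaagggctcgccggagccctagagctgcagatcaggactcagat
Il6: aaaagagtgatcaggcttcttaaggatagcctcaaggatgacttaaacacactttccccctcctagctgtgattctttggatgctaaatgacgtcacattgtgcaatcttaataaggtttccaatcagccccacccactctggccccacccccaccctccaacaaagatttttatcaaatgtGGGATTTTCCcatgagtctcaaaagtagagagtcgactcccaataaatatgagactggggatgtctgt
Lcn2: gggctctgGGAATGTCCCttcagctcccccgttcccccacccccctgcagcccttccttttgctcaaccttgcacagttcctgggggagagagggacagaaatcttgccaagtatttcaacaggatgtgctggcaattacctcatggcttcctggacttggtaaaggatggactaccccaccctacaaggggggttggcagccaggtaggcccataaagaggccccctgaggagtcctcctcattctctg
The next 3 belong to genes with large decreases. Mcm5, a subunit of the replicative helicase (chr19:13488563-13488812, plus strand), carries the E2F motif searched as TTTCCCGC or TTTGGCGC. Spc25, a kinetochore subunit (chr3:74396719-74396968, minus strand), and Cdk1, the mitotic cyclin-dependent kinase (chr20:19265043-19265292, plus strand), carry the cell cycle element TTTGAA and the CCAAT box, written ATTGG on the other strand.
Mcm5: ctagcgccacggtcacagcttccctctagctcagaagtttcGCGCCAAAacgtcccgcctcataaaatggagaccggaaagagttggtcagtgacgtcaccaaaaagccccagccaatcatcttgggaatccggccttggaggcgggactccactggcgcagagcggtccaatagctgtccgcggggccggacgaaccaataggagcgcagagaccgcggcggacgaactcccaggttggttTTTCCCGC
Spc25: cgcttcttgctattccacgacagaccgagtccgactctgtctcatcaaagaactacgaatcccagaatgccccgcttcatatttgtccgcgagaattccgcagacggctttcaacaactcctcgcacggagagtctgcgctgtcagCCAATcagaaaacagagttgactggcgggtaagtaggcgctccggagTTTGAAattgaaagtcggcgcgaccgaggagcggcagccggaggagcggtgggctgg
Cdk1: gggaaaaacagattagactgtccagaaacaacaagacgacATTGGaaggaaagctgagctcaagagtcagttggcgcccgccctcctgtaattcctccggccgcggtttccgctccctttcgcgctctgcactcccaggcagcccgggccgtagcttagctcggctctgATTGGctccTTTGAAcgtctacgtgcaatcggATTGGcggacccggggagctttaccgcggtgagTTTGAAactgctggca
The last 2 are interferon-stimulated genes with the response element ISRE, searched as GAAA, any 2 bases and GAAA on both strands, of which Gbp5 (chr2:233910749-233910998, plus strand) was called higher with PAM3CSK4 and Lgals3bp (chr10:104127849-104128098, minus strand) lower.
Gbp5: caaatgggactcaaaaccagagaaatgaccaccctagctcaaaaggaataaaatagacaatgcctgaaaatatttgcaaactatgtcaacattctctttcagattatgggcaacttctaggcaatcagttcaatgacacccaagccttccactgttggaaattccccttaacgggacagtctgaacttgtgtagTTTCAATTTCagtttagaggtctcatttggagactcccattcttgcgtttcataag
Lgals3bp: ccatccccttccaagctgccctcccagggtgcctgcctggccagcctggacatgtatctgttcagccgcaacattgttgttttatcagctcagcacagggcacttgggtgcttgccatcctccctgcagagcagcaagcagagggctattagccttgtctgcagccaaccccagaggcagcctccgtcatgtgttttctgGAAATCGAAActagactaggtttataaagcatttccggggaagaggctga

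PAM3CSK4 changed a large share of the transcriptome, with few very large increases and many moderate decreases. Of the 8858 genes 2496 (28.2%) passed the test, an adjusted p under 0.05 in limma, and are referred to as called. Of these 498 (5.62% of tested genes) were higher and 1998 (22.6%) lower with PAM3CSK4. At least 2-fold changes were seen in 293 genes called higher (3.31% of tested genes) and 903 called lower (10.2%). At least 4-fold changes were seen in 98 genes called higher and 148 called lower, and at least 16-fold changes in 21 higher and 1 lower. The genes called higher held 23.3% ± 0.964 of all FPKM in PAM3CSK4 libraries and 7.33% ± 0.637 in PBS libraries (SD, n = 4 each), and the genes called lower 12.6% ± 0.453 and 24.2% ± 0.88. FPKM is relative to each library's total, and the median log2 fold change of all tested genes was −0.27. After rescaling the libraries to a median change of 0.00, 1069 genes (12.1%) were called higher and 1191 (13.4%) lower, which put 47.3% of calls on the higher side, against 20% without rescaling. Of the 498 genes called higher 497 stayed so, and of the 1998 called lower 1189 did. With the replicate block 753 genes (8.5%) were higher and 2864 (32.3%) lower, and the 498 genes called higher and 1998 called lower were all among them. Changes of gene groups are therefore given with their counts after rescaling. These counts are to be read beside the shares of all tested genes, 5.62% higher and 22.6% lower, or 12.1% and 13.4% after rescaling. The 30 largest increases and the 30 largest decreases were picked among genes whose groups did not overlap, so their separation was set by that choice.

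**Figure D1:**
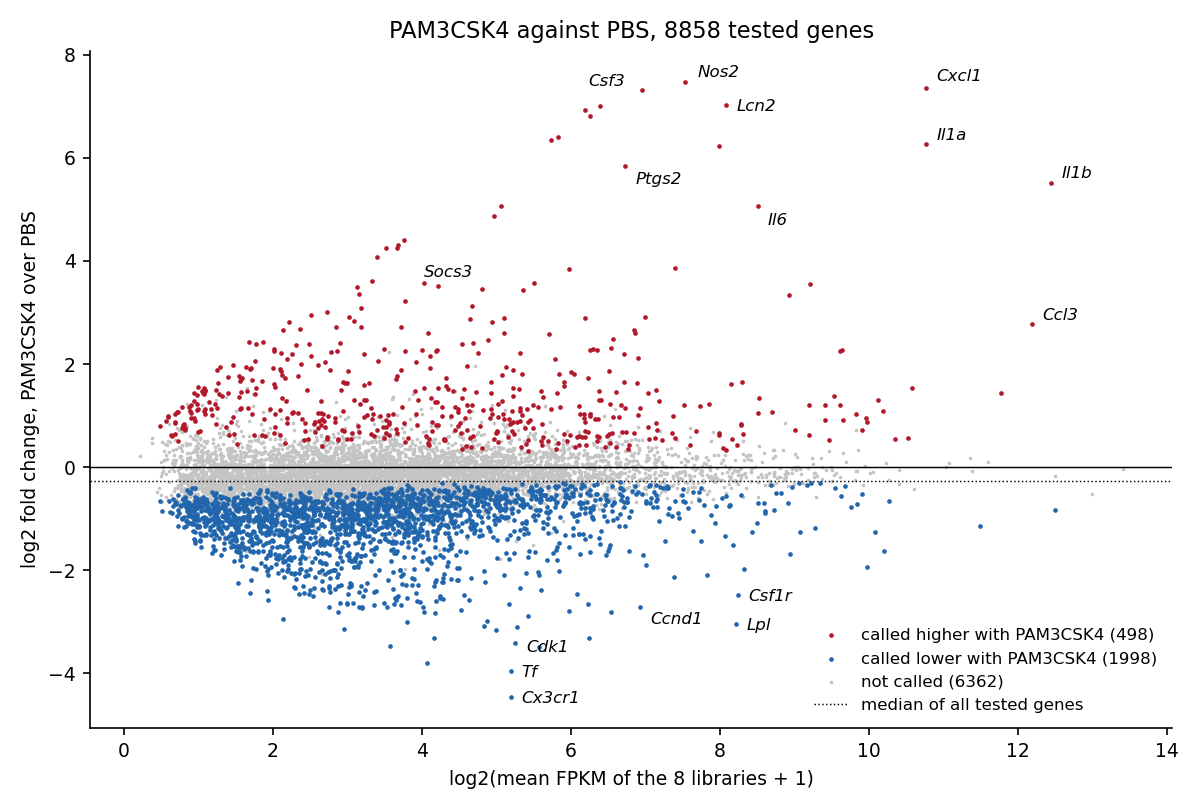
Each point is 1 of the 8858 tested genes, with its mean level over the 4 PAM3CSK4 and 4 PBS libraries on the horizontal axis and its log2 fold change (PAM3CSK4 over PBS) on the vertical axis. The 498 genes called higher (red) reach a log2 fold change of 7.48 (Nos2), the 1998 called lower (blue) reach −4.46 (Cx3cr1), and the dotted line marks the median of −0.27.

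The 10 most abundant genes among those called higher were Il1b, Ccl3, Ccl2, Cxcl1, Il1a, Ccl12, Aldoa, Akr1b8, Ccl7 and Cd63, and 7 of them encode cytokines or chemokines. Together they made up 10.8% ± 0.565 of all FPKM in PAM3CSK4 libraries and 2.17% ± 0.415 in PBS libraries (SD, n = 4 each). Akr1b8, an aldo-keto reductase, had 1619, 1089, 1559.8 and 2084 FPKM in PAM3CSK4 libraries, against 687, 591, 461 and 820.3 FPKM in PBS libraries (log2 fold change 1.30, SE 0.30, adjusted p = 0.00288).

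The receptor genes of PAM3CSK4 themselves, Tlr2 and Tlr1, were not called over all libraries. Within the larger library set Tlr1 (log2 0.55, adjusted p = 0.0122) and Tlr6 (log2 0.42, adjusted p = 0.00613) were called higher, and Tlr6 also with a term for the library sets (adjusted p = 0.032). Tlr2 had 61.8, 154, 182 and 178 FPKM in PAM3CSK4 libraries, against 87.8, 144, 142 and 170 FPKM in PBS libraries. The groups overlapped, and the difference did not pass the test (log2 fold change 0.00, SE 0.39, adjusted p = 0.995). Its partner Tlr1, which is needed for triacylated lipopeptides, was low, with 0.644, 3.54, 2.78 and 3.52 FPKM in PAM3CSK4 libraries, against 0.844, 1.93, 1.7 and 2.15 FPKM in PBS libraries (log2 fold change 0.37, SE 0.47, adjusted p = 0.618). Tlr6, the partner for diacylated lipopeptides, had 13 ± 3.6 FPKM in PAM3CSK4 libraries and 9.43 ± 2.5 FPKM in PBS libraries (log2 fold change 0.42, SE 0.42, adjusted p = 0.514). Cd14, which hands lipopeptide and LPS to the receptors, was the most abundant of the list, with 460.1, 769, 672 and 884 FPKM in PAM3CSK4 libraries, against 1080, 1288, 799.9 and 1345 FPKM in PBS libraries. It was called lower (log2 fold change −0.71, SE 0.23, adjusted p = 0.03), but not after rescaling (log2 −0.39, adjusted p = 0.218). Cd36, a scavenger receptor that acts as a TLR2 co-receptor, had 3.41, 7.52, 9.43 and 3.34 FPKM in PAM3CSK4 libraries, against 2, 1.98, 3.66 and 1.22 FPKM in PBS libraries. It was called higher (log2 fold change 1.05, SE 0.35, adjusted p = 0.031), although the lowest PAM3CSK4 values lay below the highest PBS value. The sixth gene of the list, the LPS-binding protein gene Lbp, was not tested because it did not reach the filter. The call of Cd14 was lost without PAM3CSK4 1 or 3 or PBS 2 or 4, with an adjusted p of 0.0553 to 0.113, and within the larger library set (adjusted p = 0.116). That of Cd36 was lost without PAM3CSK4 2 or 3 or PBS 1, 2 or 4, with an adjusted p of 0.0569 to 0.108, and when only the 8 libraries were fitted (adjusted p = 0.0508).

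Of 12 other tested pattern recognition receptors and accessory proteins 4 were called lower and 1 higher, against 22.6% and 5.62% of all tested genes. After rescaling the counts were 2 and 2, and with the replicate block 8 and 2. Tlr3, the receptor of double-stranded RNA, fell to 1.35 ± 0.699 FPKM in PAM3CSK4 libraries, against 7.93 ± 1.5 FPKM in PBS libraries (log2 fold change −1.97, SE 0.29, adjusted p = 4.38e-05). Ly86, which encodes the MD-1 protein that pairs with RP105, fell to 44.5 ± 5.52 FPKM in PAM3CSK4 libraries, against 135 ± 23.5 FPKM in PBS libraries (log2 fold change −1.57, SE 0.24, adjusted p = 6.65e-05). Tlr8 and Clec7a, which encodes dectin-1, also fell (log2 −0.70 and −0.65), and neither was called after rescaling. Nod2, the cytosolic sensor of muramyl dipeptide, rose to 1.04, 3.39, 5.12 and 5.29 FPKM in PAM3CSK4 libraries, against 0.202, 0.172, 0.308 and 0.604 FPKM in PBS libraries (log2 fold change 1.72, SE 0.38, adjusted p = 0.00186). All 4 PAM3CSK4 libraries lay above all 4 PBS libraries. The call of Tlr8 was lost without PAM3CSK4 1, 2 or 4 or PBS 3 or 4, with an adjusted p of 0.0631 to 0.121, and within the larger library set (adjusted p = 0.0625). That of Clec7a was lost without PAM3CSK4 1, 3 or 4 or PBS 1, 2 or 4, with an adjusted p of 0.0591 to 0.121, and with no filter on low values (adjusted p = 0.0527). The number of pattern recognition members called higher was 2 without PAM3CSK4 1. The number of pattern recognition members called lower was 2 without PAM3CSK4 1 or 4 or PBS 4.

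Among 20 tested genes of MyD88 signalling 3 were called higher and 0 lower (4 and 0 after rescaling, 4 and 2 with the replicate block), with a median log2 fold change of −0.11. The 3 were Irak2 and Irak3 and the kinase gene Map3k8. Irak2, the kinase that sustains the signal, had 41.4, 56.1, 77 and 56.2 FPKM in PAM3CSK4 libraries, against 10.7, 14.5, 16.6 and 17.4 FPKM in PBS libraries (log2 fold change 1.88, SE 0.30, adjusted p = 8.81e-05). Irak3, which encodes the inhibitory kinase IRAK-M, had 7.79, 10.7, 13.1 and 12.6 FPKM in PAM3CSK4 libraries, against 1.48, 3.51, 2.52 and 4.34 FPKM in PBS libraries (log2 fold change 1.64, SE 0.29, adjusted p = 0.000338). Map3k8, which encodes TPL2 and links NF-kB1 to the ERK pathway, had 30.6 ± 10.8 FPKM in PAM3CSK4 libraries and 10 ± 2.93 FPKM in PBS libraries (log2 fold change 1.47, SE 0.35, adjusted p = 0.00391). For each of the 3 the groups did not overlap, as in 30% of all tested genes. The adaptor Myd88 itself had 34.3 ± 8.99 FPKM in PAM3CSK4 libraries and 30.7 ± 3.72 FPKM in PBS libraries and was not called (log2 fold change 0.12, SE 0.28, adjusted p = 0.793). The number of MyD88 signalling members called higher was 5 without PAM3CSK4 1.

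Subunits and inhibitors of NF-kB had 7 of 16 tested members called higher and 1 lower (10 and 1 after rescaling), against 5.62% and 22.6% of all tested genes. Nfkbiz, which encodes the nuclear co-activator IkB-zeta, had 67.6, 163, 142 and 140.2 FPKM in PAM3CSK4 libraries, against 10.6, 16.3, 19.3 and 17.3 FPKM in PBS libraries (log2 fold change 2.89, SE 0.28, adjusted p = 3.01e-07). Birc3, a ubiquitin ligase of the TNF receptor complex, had 29.7, 73.3, 54.2 and 55.4 FPKM in PAM3CSK4 libraries, against 5.79, 8.64, 4.69 and 6.65 FPKM in PBS libraries (log2 fold change 2.82, SE 0.30, adjusted p = 1.11e-06). Nfkbia, which encodes the inhibitor IkB-alpha, had 189.8 ± 2.94 FPKM in PAM3CSK4 libraries and 69.8 ± 5.47 FPKM in PBS libraries (log2 fold change 1.43, SE 0.12, adjusted p = 7.97e-08). Nfkbib and Bcl3, which encode other IkB proteins, rose by log2 1.2 and 1.6. Map3k14, which encodes the kinase NIK of the alternative NF-kB pathway, fell to 3 ± 1.64 FPKM in PAM3CSK4 libraries, against 6.07 ± 1.07 FPKM in PBS libraries (log2 fold change −0.94, SE 0.31, adjusted p = 0.0303). The kappaB motif of the Cxcl1 window was present in the windows of 6 of 14 members (42.9%), 56 of 386 genes called higher (14.5%), 137 of 1645 called lower (8.33%) and 602 of all 7323 tested genes (8.22%). The call of Map3k14 was lost without PAM3CSK4 1 or PBS 2, 3 or 4, with an adjusted p of 0.0642 to 0.105, and when only the 8 libraries were fitted (adjusted p = 0.0887).

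Immediate early genes and feedback inhibitors of MAP kinases had 14 of 35 tested members called higher and 2 lower (17 and 2 after rescaling). Ier3, an early response gene that protects against cell death, had 1424, 1089, 1344 and 1392 FPKM in PAM3CSK4 libraries, against 349.9, 277, 186 and 295 FPKM in PBS libraries (log2 fold change 2.27, SE 0.20, adjusted p = 1.12e-07). Zfp36, which encodes tristetraprolin, a protein that destabilises cytokine mRNA, had 52.4, 53.7, 54.3 and 57.3 FPKM in PAM3CSK4 libraries, against 13.5, 12, 13.1 and 15.6 FPKM in PBS libraries (log2 fold change 1.94, SE 0.16, adjusted p = 5.1e-08). Both stood higher in every PAM3CSK4 library. Dusp1, a phosphatase of p38 and JNK, had 114 ± 18.3 FPKM in PAM3CSK4 libraries and 33.5 ± 2.59 FPKM in PBS libraries (log2 fold change 1.73, SE 0.20, adjusted p = 2.31e-06). Gadd45b and Klf6 rose by log2 2.38 and 1.49. The transcription factor gene Klf2 was low, with 0.264 ± 0.0989 FPKM in PAM3CSK4 libraries and 1.12 ± 0.361 FPKM in PBS libraries (log2 fold change −0.73, SE 0.18, adjusted p = 0.00548), and Zfp36l2, a relative of Zfp36, fell by 0.94 on the log2 scale. The AP-1 motif, searched as TGANTCA, was present in the windows of 8 of the 21 largest increases that had a window (38.1%), 41 of 386 genes called higher (10.6%) and 319 of 7323 tested genes (4.36%). The call of Zfp36l2 was lost without PAM3CSK4 1, with an adjusted p of 0.0585.

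The cytokines and growth factors included Il1b, the most abundant of all genes called higher. Of 27 tested members 15 were called higher and 2 lower, with the same counts after rescaling (16 and 6 with the replicate block). Il1b, the leading inflammatory cytokine processed by caspase-1, had 7306, 11431, 13101 and 11955 FPKM in PAM3CSK4 libraries, against 208, 271, 193 and 268 FPKM in PBS libraries (log2 fold change 5.52, SE 0.21, adjusted p = 9.88e-13). Il1a, its relative that is active without processing, had 1943, 3841, 4126 and 3821 FPKM in PAM3CSK4 libraries, against 41.3, 33.2, 25.7 and 88.4 FPKM in PBS libraries (log2 fold change 6.26, SE 0.37, adjusted p = 5.06e-10). PAM3CSK4 1 was the lowest of its group for both, and still far above every PBS library. The colony-stimulating factors, which expand and activate neutrophils and macrophages, were near 0 with PBS. Csf3 had 217, 171, 336 and 258 FPKM in PAM3CSK4 libraries, against 0, 1.86, 0 and 0.82 FPKM in PBS libraries (log2 fold change 7.31, SE 0.31, adjusted p = 4.35e-12), and Csf2 had 147, 171, 176 and 168 FPKM in PAM3CSK4 libraries, against 0.948, 0.404, 0 and 0 FPKM in PBS libraries (log2 fold change 7.01, SE 0.27, adjusted p = 9.88e-13). Il6 had 558, 654, 797 and 805 FPKM in PAM3CSK4 libraries, against 23.8, 14.4, 13 and 33.6 FPKM in PBS libraries (log2 fold change 5.07, SE 0.27, adjusted p = 1.46e-10). Inhba, which encodes the activin A subunit, had 24.8 ± 6.77 FPKM in PAM3CSK4 libraries and 0.196 ± 0.149 FPKM in PBS libraries (log2 fold change 4.41, SE 0.22, adjusted p = 4.07e-11).

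Smaller changes joined these. Tnf, the cytokine of the same name, had 148, 125, 110.3 and 96.2 FPKM in PAM3CSK4 libraries, against 58.9, 52.3, 34.9 and 46.8 FPKM in PBS libraries (log2 fold change 1.30, SE 0.24, adjusted p = 0.000444). Il10, an anti-inflammatory cytokine, had 16.2, 17.5, 8.94 and 18.5 FPKM in PAM3CSK4 libraries, against 0.307, 0.392, 1.17 and 0.39 FPKM in PBS libraries (log2 fold change 3.36, SE 0.29, adjusted p = 9.33e-08). Il23a and Ebi3, which encode chains of the IL-23 and IL-27 families, rose by log2 3.09 and 2.61. Ifnb1, which encodes interferon beta, had 4.19, 9.06, 9.38 and 4.88 FPKM in PAM3CSK4 libraries, against 0.754, 0.321, 0.863 and 0.718 FPKM in PBS libraries (log2 fold change 2.19, SE 0.40, adjusted p = 0.000384). Il1rn, the natural antagonist of the IL-1 receptor, had 77 ± 10.9 FPKM in PAM3CSK4 libraries and 92.4 ± 12.6 FPKM in PBS libraries and was not called (log2 fold change −0.26, SE 0.23, adjusted p = 0.457, and log2 0.05 after rescaling). Igf1, a growth factor that microglia supply to neurons, fell to 7.85, 5.04, 4.2 and 7.14 FPKM in PAM3CSK4 libraries, against 39.6, 22.8, 44.7 and 50.3 FPKM in PBS libraries (log2 fold change −2.49, SE 0.23, adjusted p = 2.72e-07). Il16 was the other member called lower, with 0.0208 ± 0.0258 FPKM in PAM3CSK4 libraries and 1.3 ± 0.537 FPKM in PBS libraries (log2 fold change −1.14, SE 0.15, adjusted p = 1.46e-05).

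**Figure D2:**
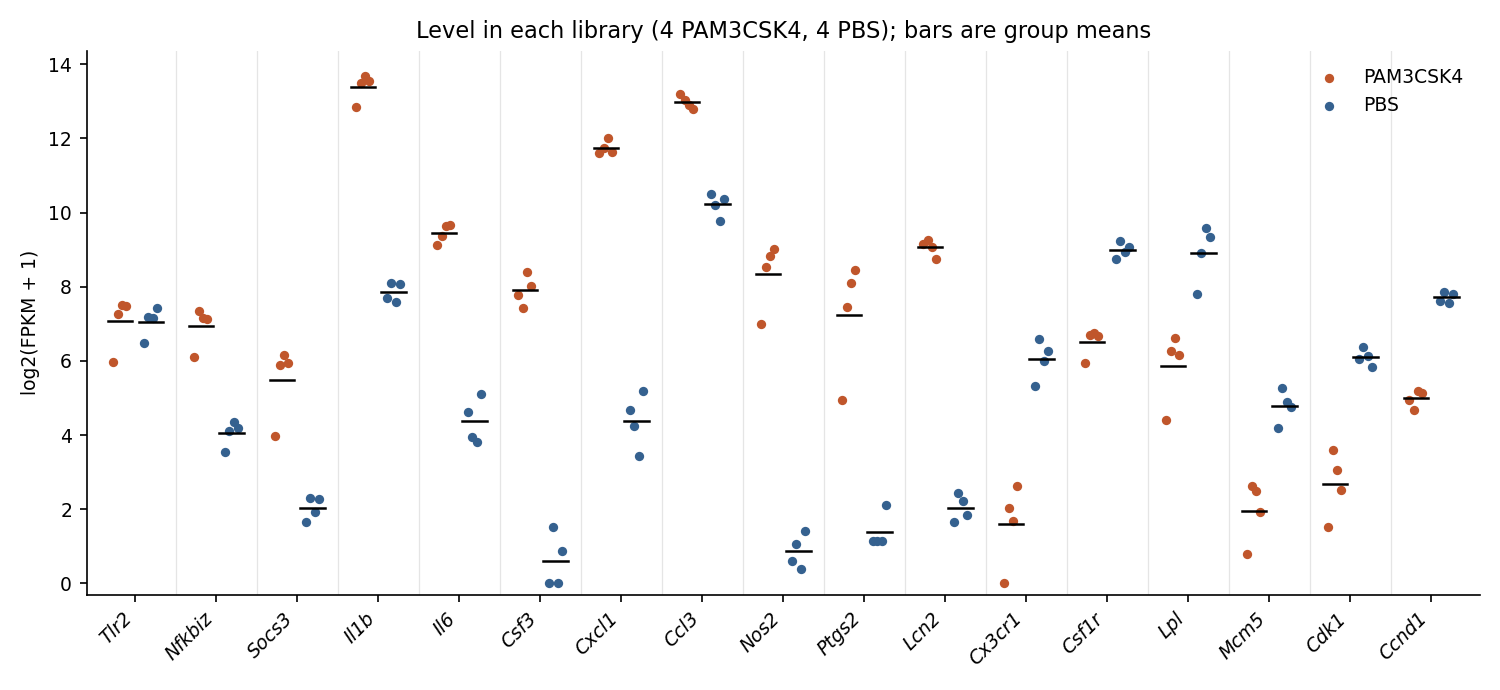
Level of 17 genes in each library as log2(FPKM + 1), PAM3CSK4 (orange) left of PBS (blue) within each gene, with bars at the group means. Tlr2 overlaps between the groups, the genes from Nfkbiz to Lcn2 are higher in every PAM3CSK4 library, and those from Cx3cr1 to Ccnd1 are lower in every PAM3CSK4 library.

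Of 20 tested chemokines 12 were called higher and 1 lower (14 and 0 after rescaling, 14 and 2 with the replicate block), with a median log2 fold change of 1.15 beside −0.27 for all tested genes. The CXC chemokines that attract neutrophils through CXCR2 changed most. Cxcl1 had 3106, 3445, 4116 and 3192 FPKM in PAM3CSK4 libraries, against 24.8, 18.1, 9.75 and 35.5 FPKM in PBS libraries (log2 fold change 7.36, SE 0.28, adjusted p = 9.88e-13). Cxcl2 had 324, 437, 694 and 532 FPKM in PAM3CSK4 libraries, against 5.78, 6.54, 1.45 and 12.6 FPKM in PBS libraries (log2 fold change 6.22, SE 0.45, adjusted p = 1.03e-08), and Cxcl3 had 88.6, 102, 98.6 and 128 FPKM in PAM3CSK4 libraries, against 0.931, 0.132, 0.237 and 0 FPKM in PBS libraries (log2 fold change 6.34, SE 0.30, adjusted p = 1.59e-11). These 3 genes resemble each other in sequence, and the authors' counting could divide their reads. The CC chemokines that attract monocytes were already abundant with PBS. Ccl3 had 9366, 8420.1, 7669 and 7124 FPKM in PAM3CSK4 libraries, against 1460.1, 1183, 874 and 1328 FPKM in PBS libraries (log2 fold change 2.77, SE 0.21, adjusted p = 2.71e-08), and its near copy Ccl4 rose by log2 1.21. Ccl2 had 4286, 4635, 5422 and 5867 FPKM in PAM3CSK4 libraries, against 1988, 1686, 1231 and 2805 FPKM in PBS libraries (log2 fold change 1.44, SE 0.23, adjusted p = 0.000115), and its relatives Ccl7 and Ccl12 rose by log2 1.09 and 1.53. Ccl20, which attracts cells through CCR6, was listed at 0 in all 4 PBS libraries and at 11.8, 3.99, 3.55 and 1.89 FPKM in PAM3CSK4 libraries. Pf4, a platelet chemokine gene that also marks border macrophages, rose to 59.7, 87.6, 81.1 and 124 FPKM in PAM3CSK4 libraries, against 16.4, 14.6, 17.6 and 32.6 FPKM in PBS libraries (log2 fold change 2.09, SE 0.41, adjusted p = 0.000776), while of the other border macrophage markers Cd163 was listed at 0 in all 8 libraries, Lyve1 fell to 0.557, 0.687, 1.74 and 1.12 FPKM in PAM3CSK4 libraries, against 3.63, 11.5, 10.4 and 6.9 FPKM in PBS libraries (log2 fold change −2.10, SE 0.32, adjusted p = 5.58e-05), and Mrc1 had 0.232, 1.87, 2.47 and 2.04 FPKM in PAM3CSK4 libraries, against 1.56, 4.36, 8.48 and 5.36 FPKM in PBS libraries (log2 fold change −1.12, SE 0.44, adjusted p = 0.0669). Mrc1 was called lower with the replicate block (adjusted p = 0.000178), within the larger library set (adjusted p = 0.00305) and without PBS 1 (adjusted p = 0.0174). Cxcl16 fell by 0.90 on the log2 scale and was not called after rescaling. Cxcl10, an interferon-inducible chemokine, had 64.3 ± 22.3 FPKM in PAM3CSK4 libraries and 85.3 ± 31.5 FPKM in PBS libraries and was not called (log2 fold change −0.38, SE 0.31, adjusted p = 0.408). Of the 14 chemokine genes with a window 7 (50.0%) held the kappaB motif. The call of Ccl7 was lost without PBS 3, with an adjusted p of 0.0505. The number of chemokines called lower was 2 without PBS 3.

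Of 12 tested receptors for such signals 5 were called lower and 2 higher (4 and 2 after rescaling), against 22.6% and 5.62% of all tested genes. Cx3cr1, the receptor of the neuronal chemokine fractalkine, had the largest decrease of all named genes, with 0, 3.09, 2.24 and 5.22 FPKM in PAM3CSK4 libraries, against 39.3, 96.1, 62.9 and 76.6 FPKM in PBS libraries (log2 fold change −4.46, SE 0.50, adjusted p = 2.23e-06). Its level in PAM3CSK4 1 was listed at 0, which can be a failed estimate. Gpr183, the oxysterol receptor EBI2, fell to 5.19 ± 1.53 FPKM in PAM3CSK4 libraries, against 50.1 ± 3.35 FPKM in PBS libraries (log2 fold change −3.08, SE 0.20, adjusted p = 2.03e-09). Ccrl2, an atypical receptor that presents chemerin, rose to 74.6, 114, 77.6 and 88.8 FPKM in PAM3CSK4 libraries, against 23.9, 23.6, 22.3 and 27.5 FPKM in PBS libraries (log2 fold change 1.81, SE 0.17, adjusted p = 3.16e-07). C3ar1, the receptor of complement fragment C3a, rose to 70.6 ± 23.1 FPKM in PAM3CSK4 libraries, against 25.8 ± 4.98 FPKM in PBS libraries (log2 fold change 1.37, SE 0.29, adjusted p = 0.00141).

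Among 24 tested cytokine receptors 3 were called higher and 3 lower, against 5.62% and 22.6% of all tested genes. After rescaling the counts were 5 and 2, and with the replicate block 7 and 5. Csf1r, the receptor on which microglial survival depends, fell to 60.4, 102, 107 and 101 FPKM in PAM3CSK4 libraries, against 425, 596, 487 and 540.3 FPKM in PBS libraries (log2 fold change −2.48, SE 0.20, adjusted p = 3.71e-08). Il2ra, the alpha chain of the IL-2 receptor, rose to 13.5, 15.9, 19.3 and 26.8 FPKM in PAM3CSK4 libraries, against 0.0662, 0.169, 0 and 0.336 FPKM in PBS libraries (log2 fold change 4.08, SE 0.27, adjusted p = 2.65e-09). Il7r, the IL-7 receptor chain, rose to 142 ± 24 FPKM in PAM3CSK4 libraries, against 38.5 ± 10.5 FPKM in PBS libraries (log2 fold change 1.87, SE 0.25, adjusted p = 1.25e-05). Of 18 tested TNF superfamily ligands and receptors 6 were called higher and 4 lower, beside the same shares (9 and 3 after rescaling). Tnfrsf1b, which encodes TNF receptor 2, had 35.8, 86.3, 109 and 100 FPKM in PAM3CSK4 libraries, against 2.42, 6.99, 7.17 and 7.07 FPKM in PBS libraries (log2 fold change 3.57, SE 0.50, adjusted p = 2.56e-05). Tnfrsf14, the herpesvirus entry mediator, rose by log2 2.66 and Cd40 by 1.43. Tnfrsf11a, which encodes RANK, fell to 2.02 ± 0.992 FPKM in PAM3CSK4 libraries, against 8 ± 1.49 FPKM in PBS libraries (log2 fold change −1.62, SE 0.31, adjusted p = 0.000531).

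Genes of the JAK-STAT pathway and its inhibitors had 6 of 21 tested members called higher and 1 lower (7 and 1 after rescaling, 6 and 2 with the replicate block). The increases included inducible inhibitors and kinases. Socs3, which blocks signalling through gp130 and related receptors, had 14.8, 58.7, 70.3 and 60.5 FPKM in PAM3CSK4 libraries, against 2.18, 3.92, 2.77 and 3.85 FPKM in PBS libraries (log2 fold change 3.45, SE 0.59, adjusted p = 0.000219). Cish, another member of that inhibitor family, had 7.18, 15, 18.5 and 15.5 FPKM in PAM3CSK4 libraries, against 1.29, 0.719, 0.773 and 1.29 FPKM in PBS libraries (log2 fold change 2.84, SE 0.28, adjusted p = 4.44e-07). The survival kinase genes Pim1 and Pim2 rose by log2 2.61 and 2.71. The number of JAK-STAT members called lower was 0 without PAM3CSK4 1 or PBS 2, 3 or 4.

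Of 50 tested interferon-stimulated genes 19 were called lower and 3 higher, against 22.6% and 5.62% of all tested genes, with a median log2 fold change of −0.50, and 11 and 4 after rescaling, with a median of −0.21. Lgals3bp, a secreted glycoprotein, fell to 8.32, 30.9, 24.4 and 31.2 FPKM in PAM3CSK4 libraries, against 74.6, 80.9, 74 and 76.2 FPKM in PBS libraries (log2 fold change −1.80, SE 0.37, adjusted p = 0.001). Zbp1, a sensor of left-handed nucleic acids, fell to 0.955 ± 0.865 FPKM in PAM3CSK4 libraries, against 4.06 ± 1.24 FPKM in PBS libraries (log2 fold change −1.43, SE 0.33, adjusted p = 0.00293). Irf8, a transcription factor that microglia need, fell to 17.3 ± 5.19 FPKM in PAM3CSK4 libraries, against 40.3 ± 12.2 FPKM in PBS libraries (log2 fold change −1.18, SE 0.35, adjusted p = 0.017). Usp18, which removes ISG15 and dampens interferon signalling, rose to 81, 169, 109 and 159.9 FPKM in PAM3CSK4 libraries, against 45.8, 64.7, 49.1 and 51.5 FPKM in PBS libraries (log2 fold change 1.23, SE 0.23, adjusted p = 0.000392). Oasl and Gbp5, antiviral proteins, rose by log2 1.22 and 1.2. The response element of the Gbp5 and Lgals3bp windows was present in 22 of 36 members with a window (61.1%), among them genes called in either direction, and in 209 of 7323 tested genes (2.85%). The call of Irf8 was lost without PAM3CSK4 1 or PBS 2, with an adjusted p of 0.0638 to 0.0659. That of Gbp5 was lost without PAM3CSK4 2, with an adjusted p of 0.0624. The number of interferon-stimulated genes called lower was 11 without PBS 2.

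Enzymes that make nitric oxide and handle arginine had 6 of 13 tested members called higher and 2 lower (8 and 1 after rescaling). Nos2, the inducible nitric oxide synthase, had the largest increase of all tested genes named here, with 127, 371, 456 and 517 FPKM in PAM3CSK4 libraries, against 0.519, 1.08, 0.319 and 1.66 FPKM in PBS libraries (log2 fold change 7.48, SE 0.51, adjusted p = 4.31e-09). Slc7a2, an arginine transporter, had 20.1, 62.9, 90.1 and 82.8 FPKM in PAM3CSK4 libraries, against 0.293, 0.606, 0.957 and 1.06 FPKM in PBS libraries (log2 fold change 5.06, SE 0.51, adjusted p = 5.89e-07). In both genes PAM3CSK4 1 was the lowest of its group. Arg1, the arginase that competes for the same substrate, rose to 4.23, 4.93, 11.1 and 11.5 FPKM in PAM3CSK4 libraries, against 0.0695, 0.592, 0.424 and 0.177 FPKM in PBS libraries (log2 fold change 2.67, SE 0.51, adjusted p = 0.000567). IRG1, the enzyme that makes itaconate, rose to 36.2, 108, 63.6 and 89.6 FPKM in PAM3CSK4 libraries, against 5.9, 7.02, 2.68 and 7.69 FPKM in PBS libraries (log2 fold change 3.43, SE 0.47, adjusted p = 1.74e-05). Ass1, which regenerates arginine from citrulline, rose to 2.14 ± 0.79 FPKM in PAM3CSK4 libraries, against 0.288 ± 0.178 FPKM in PBS libraries (log2 fold change 1.26, SE 0.21, adjusted p = 0.00015). Spr, which completes the synthesis of the cofactor tetrahydrobiopterin, fell to 5.24 ± 0.79 FPKM in PAM3CSK4 libraries, against 11.4 ± 1.32 FPKM in PBS libraries (log2 fold change −1, SE 0.18, adjusted p = 0.000358). The number of members of the nitric oxide list called lower was 1 without PAM3CSK4 2, 3 or 4 or PBS 1, 2, 3 or 4.

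Enzymes of prostaglandin and leukotriene synthesis moved in both directions, 5 of 20 tested members higher and 7 lower (5 and 6 after rescaling). Of all tested genes 5.62% were called higher and 22.6% lower. Ptgs2, the inducible cyclooxygenase, had 30.1, 175, 272 and 352 FPKM in PAM3CSK4 libraries, against 1.21, 1.23, 1.23 and 3.37 FPKM in PBS libraries (log2 fold change 5.85, SE 0.74, adjusted p = 8.1e-06). Ptges, the inducible prostaglandin E synthase, had 4.03, 1.06, 1.66 and 1.56 FPKM in PAM3CSK4 libraries, against 0, 0, 0 and 0.212 FPKM in PBS libraries (log2 fold change 1.47, SE 0.34, adjusted p = 0.00265). Ptger2, a receptor of prostaglandin E2, rose to 37.7 ± 10.3 FPKM in PAM3CSK4 libraries, against 9.22 ± 3.76 FPKM in PBS libraries (log2 fold change 1.96, SE 0.34, adjusted p = 0.000252). The decreases included genes of the leukotriene branch. Alox5ap, the activator of 5-lipoxygenase, had 10, 4.94, 4.76 and 8.35 FPKM in PAM3CSK4 libraries, against 104, 87.7, 66.4 and 88.1 FPKM in PBS libraries (log2 fold change −3.49, SE 0.30, adjusted p = 9.41e-08). Lta4h, which makes leukotriene B4, fell to 7.15 ± 2.5 FPKM in PAM3CSK4 libraries, against 35.4 ± 9.32 FPKM in PBS libraries (log2 fold change −2.18, SE 0.31, adjusted p = 2.71e-05), and the lipoxygenase genes Alox5 and Alox15 fell by 0.99 and 1.46 on the log2 scale. The number of members called lower was 4 without PAM3CSK4 1 or PBS 2 or 3.

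Of 25 tested genes for the NADPH oxidase and antioxidant enzymes 5 were called higher and 7 lower, against 5.62% and 22.6% overall. After rescaling the counts were 9 and 3, and with the replicate block 9 and 8. Sod2, the mitochondrial superoxide dismutase, had 1061, 1374, 1409 and 1323 FPKM in PAM3CSK4 libraries, against 250.4, 235, 295 and 304 FPKM in PBS libraries (log2 fold change 2.25, SE 0.13, adjusted p = 5.06e-10). Slc7a11, the cystine importer, rose to 25.4 ± 5.48 FPKM in PAM3CSK4 libraries, against 4.55 ± 1.61 FPKM in PBS libraries (log2 fold change 2.28, SE 0.27, adjusted p = 3.46e-06). Cybb, the catalytic subunit of the phagocyte oxidase, fell to 28.3, 57.8, 78.8 and 54 FPKM in PAM3CSK4 libraries, against 117, 199.9, 175 and 159 FPKM in PBS libraries (log2 fold change −1.62, SE 0.39, adjusted p = 0.00394). Catalase (Cat) and the glutathione peroxidase gene Gpx3 fell by 0.71 and 1.16 on the log2 scale. The number of members called lower was 4 without PAM3CSK4 2 or PBS 1.

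Iron and metal handling had 4 of 14 tested members called higher and 4 lower, against 5.62% and 22.6% of all tested genes. After rescaling the counts were 5 and 4. Lcn2, whose product lipocalin 2 sequesters bacterial iron carriers, had 571, 608, 541 and 431 FPKM in PAM3CSK4 libraries, against 2.15, 4.38, 3.65 and 2.58 FPKM in PBS libraries (log2 fold change 7.03, SE 0.21, adjusted p = 4.62e-14). Mt2A, a metallothionein, had 123, 37.3, 33.8 and 44 FPKM in PAM3CSK4 libraries, against 0.819, 0.93, 0.417 and 1.04 FPKM in PBS libraries (log2 fold change 4.87, SE 0.43, adjusted p = 1.21e-07). Tf, which encodes transferrin, fell to 1.45, 4.56, 4.35 and 3.87 FPKM in PAM3CSK4 libraries, against 53.6, 79.9, 54.1 and 82.6 FPKM in PBS libraries (log2 fold change −3.95, SE 0.31, adjusted p = 3.33e-08). The iron exporter gene Slc40a1 and the transferrin receptor gene Tfrc fell by 1.10 and 0.83 on the log2 scale. The call of Slc40a1 was lost without PBS 4, with an adjusted p of 0.0547. That of Tfrc was lost without PAM3CSK4 1 or PBS 2 or 3, with an adjusted p of 0.0521 to 0.0768. The number of members called lower was 2 without PBS 2 or 3.

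Coagulation and matrix proteolysis had 11 of 21 tested members called higher and 4 lower (12 and 3 after rescaling), with a median log2 fold change of 1.04. Matrix metalloproteinases led it. Mmp13, a collagenase, had 73.4, 142, 281 and 78.8 FPKM in PAM3CSK4 libraries, against 0, 0.0685, 0 and 0 FPKM in PBS libraries (log2 fold change 6.93, SE 0.46, adjusted p = 3.62e-09). Mmp9, a gelatinase, had 857, 986, 1391 and 1123 FPKM in PAM3CSK4 libraries, against 78.1, 58.1, 137 and 104 FPKM in PBS libraries (log2 fold change 3.56, SE 0.34, adjusted p = 2.79e-07). Mmp12, the macrophage elastase, had 315 ± 90.2 FPKM in PAM3CSK4 libraries and 20.2 ± 4.08 FPKM in PBS libraries (log2 fold change 3.87, SE 0.30, adjusted p = 2.28e-08). F3, which encodes tissue factor, the starter of the extrinsic clotting pathway, had 74.4, 88.9, 154 and 127 FPKM in PAM3CSK4 libraries, against 0.236, 0.252, 0.18 and 0.451 FPKM in PBS libraries (log2 fold change 6.4, SE 0.29, adjusted p = 1.01e-11). Serpinb2, an inhibitor of plasminogen activators, was listed at 0 in all 4 PBS libraries and at 6.98, 10.7, 48.4 and 27.5 FPKM in PAM3CSK4 libraries. The decreases included Plau, which encodes urokinase, with 43.3, 96.3, 92.1 and 113 FPKM in PAM3CSK4 libraries, against 224, 458, 336 and 446 FPKM in PBS libraries (log2 fold change −2.10, SE 0.42, adjusted p = 0.000781), and Mmp2 and the inhibitor gene Timp2, which fell by 1.11 and 1.51 on the log2 scale.

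Adhesion molecules (18 tested) had 5 called higher and 6 lower, against 5.62% and 22.6% of all tested genes, with the same counts after rescaling. Itgal, the alpha chain of the integrin LFA-1, had 43, 156, 133 and 137 FPKM in PAM3CSK4 libraries, against 2.95, 10.3, 8.27 and 6.25 FPKM in PBS libraries (log2 fold change 3.84, SE 0.46, adjusted p = 4.36e-06). Cd44, the hyaluronan receptor, rose to 479 ± 118 FPKM in PAM3CSK4 libraries, against 148 ± 25 FPKM in PBS libraries (log2 fold change 1.66, SE 0.27, adjusted p = 0.00014), and Icam1, the ligand of LFA-1, to 80.5 ± 33.7 FPKM in PAM3CSK4 libraries, against 32.7 ± 7.42 FPKM in PBS libraries (log2 fold change 1.17, SE 0.40, adjusted p = 0.0327). Icam2 and the integrin chain gene Itgb5 fell by 2.11 and 1.71 on the log2 scale. Of 13 costimulatory and checkpoint genes 6 were called higher and 2 lower (6 and 2 after rescaling). Cd69, an early activation receptor, had 116, 173, 128 and 184 FPKM in PAM3CSK4 libraries, against 0.847, 0.444, 0 and 0.166 FPKM in PBS libraries (log2 fold change 6.81, SE 0.30, adjusted p = 5.47e-12). Cd274, which encodes PD-L1, had 19, 48.7, 66.6 and 64.8 FPKM in PAM3CSK4 libraries, against 4.97, 7.24, 7.31 and 10.7 FPKM in PBS libraries (log2 fold change 2.46, SE 0.48, adjusted p = 0.000671). Cd83 and Cd86, markers of antigen-presenting cells, rose by log2 1.01 and 0.98. Lgals9, which encodes galectin 9, fell to 8.27 ± 1.51 FPKM in PAM3CSK4 libraries, against 40.4 ± 5.26 FPKM in PBS libraries (log2 fold change −2.16, SE 0.26, adjusted p = 3.77e-06). The machinery that loads peptide on MHC class II was lower in 4 of 5 tested genes, also after rescaling. The MHC class II list held 11 genes, and the others did not reach the filter. RT1-DMa and RT1-DMb, the peptide exchange factors, fell by 2.89 and 2.66 on the log2 scale, and the reads of RT1 genes can be shared with near copies. The call of Icam1 was lost without PAM3CSK4 2, 3 or 4 or PBS 1 or 2, with an adjusted p of 0.064 to 0.103. That of Cd83 was lost without PAM3CSK4 2 or 3 or PBS 1, with an adjusted p of 0.0554 to 0.0807. That of Cd86 was lost without PAM3CSK4 2 or 4, with an adjusted p of 0.0537 to 0.0736, and when only the 8 libraries were fitted (adjusted p = 0.0525). The number of costimulatory and checkpoint genes called higher was 3 without PAM3CSK4 2.

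Homeostatic microglial genes had the lowest median outside the cell cycle among the 37 lists described. Of 27 tested members 17 were called lower and 1 higher, with a median log2 fold change of −1.54, and 15 and 1 with a median of −1.31 after rescaling. Gpr34, a lysophosphatidylserine receptor, had 0.311, 1.43, 2.06 and 1.27 FPKM in PAM3CSK4 libraries, against 17.4, 31.2, 36.2 and 36.5 FPKM in PBS libraries (log2 fold change −3.80, SE 0.38, adjusted p = 5.89e-07). P2ry12, the receptor that guides processes towards ADP, was low throughout, with 0, 0.317, 0.238 and 1.08 FPKM in PAM3CSK4 libraries, against 4.51, 3.7, 3.7 and 5.84 FPKM in PBS libraries (log2 fold change −1.98, SE 0.20, adjusted p = 6.63e-07). Trem2, a lipid receptor that signals through TYROBP, fell to 17.6, 15.9, 17.1 and 28.2 FPKM in PAM3CSK4 libraries, against 111, 104, 80 and 158 FPKM in PBS libraries (log2 fold change −2.46, SE 0.24, adjusted p = 4.53e-07). Slco2b1, an anion transporter, fell to 4.2 ± 1.25 FPKM in PAM3CSK4 libraries, against 23 ± 8.78 FPKM in PBS libraries (log2 fold change −2.15, SE 0.38, adjusted p = 0.000274). The general myeloid genes Aif1 and Tyrobp were not called, with log2 fold changes of 0.14 and −0.25 (0.46 and 0.06 after rescaling). Siglec5, an inhibitory sialic acid receptor, was the member called higher, with 26 ± 16.7 FPKM in PAM3CSK4 libraries and 6.58 ± 6.32 FPKM in PBS libraries (log2 fold change 1.92, SE 0.50, adjusted p = 0.00677).

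Of 35 tested members of a list of microglial transcription factors 8 were called higher and 6 lower (11 and 5 after rescaling). Of all tested genes 5.62% were called higher and 22.6% lower, so the share called lower was below that of all tested genes. Batf, a partner of JUN proteins, had 57.3, 44.3, 34.1 and 37.6 FPKM in PAM3CSK4 libraries, against 10.6, 8.83, 7.41 and 6.86 FPKM in PBS libraries (log2 fold change 2.22, SE 0.19, adjusted p = 1.12e-07). Cebpd, Nfil3, Ets2 and Hif1a rose by log2 1.38, 1.51, 1.15 and 1.18. Etv5 and Hhex fell by 1.72 and 1.74 on the log2 scale. Spi1, which encodes the master regulator PU.1, had 155 ± 22.3 FPKM in PAM3CSK4 libraries and 173 ± 14.2 FPKM in PBS libraries and was not called (log2 fold change −0.17, SE 0.15, adjusted p = 0.471, and log2 0.15 after rescaling).

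Genes known from disease-associated microglia had 12 of 25 tested members called lower and 3 higher (6 and 3 after rescaling). The shares of all tested genes were 22.6% lower and 5.62% higher, or 13.4% and 12.1% after rescaling. Lpl, lipoprotein lipase, had 20.1, 75.5, 97.9 and 70.9 FPKM in PAM3CSK4 libraries, against 222, 480.3, 761 and 642 FPKM in PBS libraries (log2 fold change −3.04, SE 0.60, adjusted p = 0.000797). Gpnmb, a membrane glycoprotein of lysosomal stress, fell to 427 ± 141 FPKM in PAM3CSK4 libraries, against 1591 ± 302 FPKM in PBS libraries (log2 fold change −1.94, SE 0.30, adjusted p = 7.26e-05). Ctsl, a cysteine protease, and Ch25h, which makes 25-hydroxycholesterol, rose by log2 0.87 and 0.92.

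Of 32 phagocytic and Fc receptors 12 were called lower and 4 higher (10 and 4 after rescaling). The shares of all tested genes were 22.6% lower and 5.62% higher, or 13.4% and 12.1% after rescaling. The Fc receptors for immunoglobulin G divided. Fcgr2b, the inhibitory receptor, rose to 204, 178, 248 and 192 FPKM in PAM3CSK4 libraries, against 95.5, 88.8, 83.4 and 67.2 FPKM in PBS libraries (log2 fold change 1.29, SE 0.15, adjusted p = 3.3e-06), and Fcgr2a rose to 395 ± 67.3 FPKM in PAM3CSK4 libraries, against 224 ± 11.6 FPKM in PBS libraries (log2 fold change 0.81, SE 0.15, adjusted p = 0.000348). Fcgr1a and Fcgr3a fell by 0.88 and 0.94 on the log2 scale. These genes are similar in sequence, so that the division of reads among them is uncertain. Complement genes had 7 of 14 tested members called lower and 2 higher (7 and 3 after rescaling), beside the same shares of all tested genes. C1qb, a chain of the initiator of the classical pathway, fell to 11.8, 10.8, 11.7 and 13.1 FPKM in PAM3CSK4 libraries, against 38.3, 73.4, 50.4 and 58.5 FPKM in PBS libraries (log2 fold change −2.09, SE 0.28, adjusted p = 1.85e-05), and C1qa and C1qc fell by 1.86 and 2.36 on the log2 scale. Cd55, which protects cells from complement, rose to 7.08 ± 2.1 FPKM in PAM3CSK4 libraries, against 1.87 ± 0.784 FPKM in PBS libraries (log2 fold change 1.49, SE 0.33, adjusted p = 0.00213). The number of phagocytic and Fc receptors called higher was 2 without PBS 2.

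Lysosomal enzymes and membrane proteins had 15 of 39 tested members called lower and 3 higher (9 and 4 after rescaling, 25 and 3 with the replicate block). The shares of all tested genes were 22.6% lower and 5.62% higher, 13.4% and 12.1% after rescaling, and 32.3% and 8.5% with the replicate block. Ctsd, the aspartic protease of the lysosome, fell to 378, 519, 739 and 714 FPKM in PAM3CSK4 libraries, against 1458, 1514, 1956 and 2121 FPKM in PBS libraries (log2 fold change −1.62, SE 0.30, adjusted p = 0.000507). Arsb and Gusb, which degrade glycosaminoglycans, fell by 1.91 and 1.58 on the log2 scale. Smpd1, acid sphingomyelinase, rose to 44.4 ± 21.7 FPKM in PAM3CSK4 libraries, against 14.4 ± 2.55 FPKM in PBS libraries (log2 fold change 1.44, SE 0.44, adjusted p = 0.0187). The call of Smpd1 was lost without PAM3CSK4 3 or 4, with an adjusted p of 0.0531 to 0.0674.

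Genes of inflammasomes and cell death had 3 of 29 tested members called higher and 4 lower, against 5.62% and 22.6% of all tested genes. The share called lower was thus below that of all tested genes. After rescaling the counts were 7 and 3, and with the replicate block 6 and 7. Cflar, which encodes the caspase-8 inhibitor c-FLIP, had 61.1, 159.9, 153 and 149.6 FPKM in PAM3CSK4 libraries, against 15.7, 28.8, 27.8 and 27 FPKM in PBS libraries (log2 fold change 2.29, SE 0.35, adjusted p = 5.87e-05). Bcl2a1, a BCL2 relative, rose to 527 ± 92.4 FPKM in PAM3CSK4 libraries, against 207 ± 28.7 FPKM in PBS libraries (log2 fold change 1.34, SE 0.16, adjusted p = 5.74e-06), and the kinase gene Ripk2, which acts below NOD2, to 99.3 ± 30.8 FPKM in PAM3CSK4 libraries, against 26.5 ± 6.04 FPKM in PBS libraries (log2 fold change 1.84, SE 0.39, adjusted p = 0.00126). Pycard, the adaptor ASC, fell to 23.4, 12.7, 14.3 and 9.31 FPKM in PAM3CSK4 libraries, against 113, 79.7, 68.5 and 59.8 FPKM in PBS libraries (log2 fold change −2.38, SE 0.34, adjusted p = 2.71e-05), and Gsdmd, the pore former of pyroptosis, to 1.97 ± 0.937 FPKM in PAM3CSK4 libraries, against 10.3 ± 0.47 FPKM in PBS libraries (log2 fold change −1.99, SE 0.26, adjusted p = 1.34e-05). The sensor gene Nlrp3 had 71.1 ± 37.7 FPKM in PAM3CSK4 libraries and 27.8 ± 11.8 FPKM in PBS libraries. It was not called as deposited (log2 fold change 1.18, SE 0.63, adjusted p = 0.186) and was called after rescaling (log2 1.48, adjusted p = 0.0378), with the replicate block (adjusted p = 0.00674) and without PAM3CSK4 1 (log2 1.77, adjusted p = 0.0359).

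**Figure D3:**
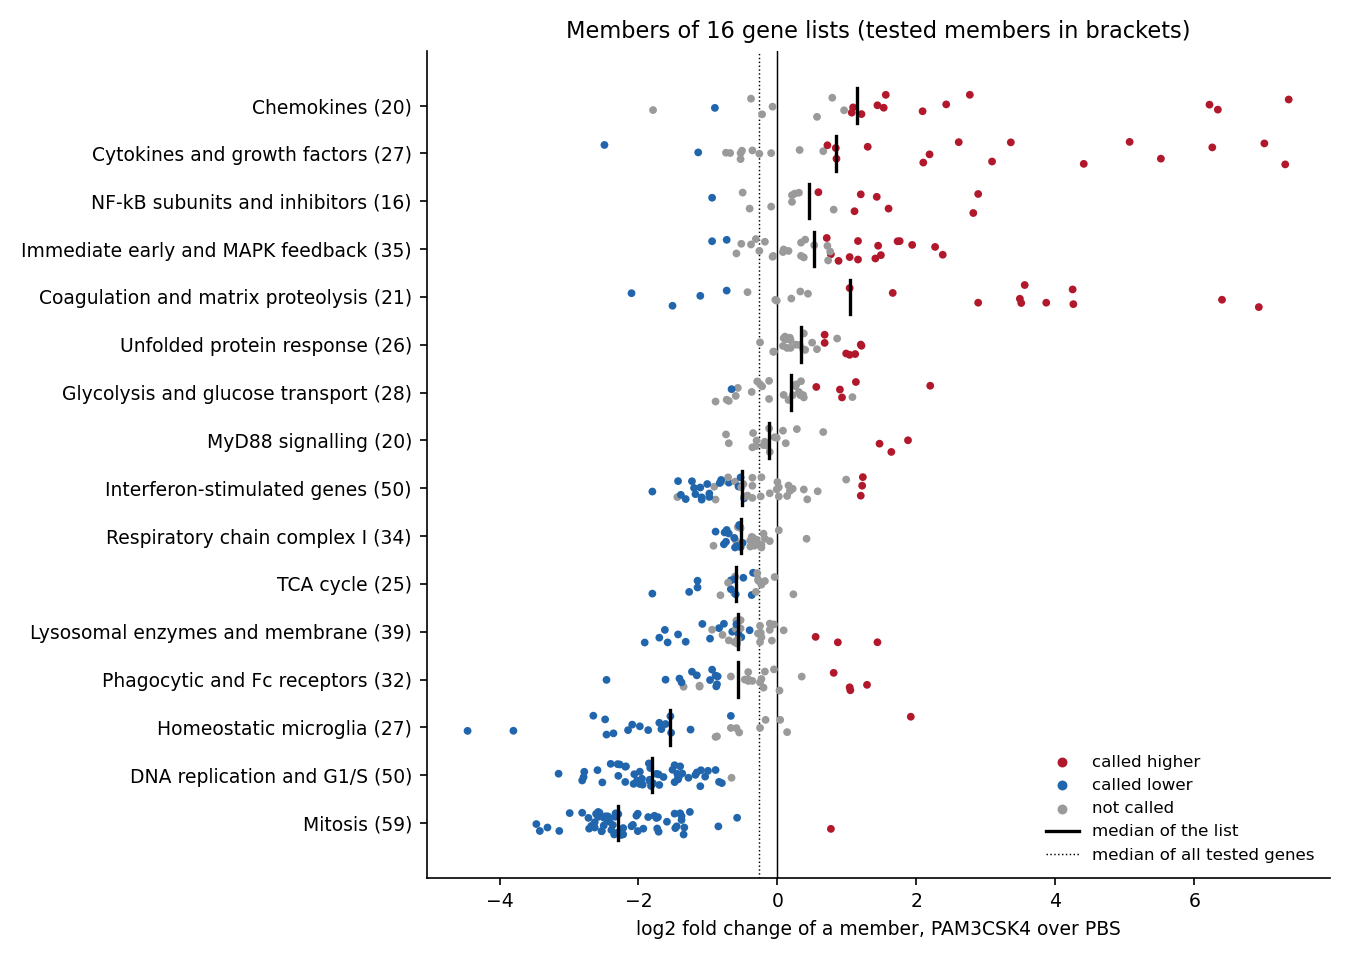
Log2 fold changes (PAM3CSK4 over PBS) of the tested members of 16 gene lists, 1 point a gene, with called members in red or blue, a black bar at each list's median and a dotted line at the median of all tested genes (−0.27). Chemokines (median 1.15) and coagulation and matrix genes (1.04) lie furthest to the right, homeostatic microglial genes (−1.54), DNA replication (−1.81) and mitosis (−2.29) furthest to the left.

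Of 28 tested glycolysis and glucose transport genes 5 were called higher and 1 lower (10 and 0 after rescaling, 7 and 4 with the replicate block). Slc2a1, the glucose transporter GLUT1, had 97.6, 172, 206 and 212 FPKM in PAM3CSK4 libraries, against 24.5, 37, 40.8 and 40.5 FPKM in PBS libraries (log2 fold change 2.20, SE 0.32, adjusted p = 3.35e-05). Slc16a3, the lactate exporter MCT4, rose to 58.8 ± 25.1 FPKM in PAM3CSK4 libraries, against 24.7 ± 6.52 FPKM in PBS libraries (log2 fold change 1.13, SE 0.33, adjusted p = 0.0138). Aldoa, an aldolase, rose by log2 0.56. The tricarboxylic acid cycle had 11 of 25 tested members called lower and 0 higher (4 and 0 after rescaling). Of all tested genes 22.6% were called lower and 5.62% higher, or 13.4% and 12.1% after rescaling. Idh2, mitochondrial isocitrate dehydrogenase, had 17.1, 30.8, 26.7 and 23.1 FPKM in PAM3CSK4 libraries, against 75.1, 96.3, 88.7 and 83.1 FPKM in PBS libraries (log2 fold change −1.80, SE 0.21, adjusted p = 3.54e-06). Idh3a and Mdh1 fell by 1.15 and 1.15 on the log2 scale, also after rescaling. Of 34 complex I genes 14 were called lower and 0 higher, but 0 in either direction after rescaling, where their median log2 fold change was −0.22 against −0.53 as deposited. The call of Slc16a3 was lost without PAM3CSK4 3 or PBS 4, with an adjusted p of 0.0512 to 0.053. The number of glycolysis and transport genes called higher was 3 without PAM3CSK4 3. The number of glycolysis and transport genes called lower was 2 without PAM3CSK4 4 or PBS 1. The number of complex I genes called lower was 8 without PBS 1 and 9 without PAM3CSK4 3 or 4 or PBS 2.

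Cholesterol synthesis had 6 of 27 tested members called lower and 0 higher (2 and 1 after rescaling, 11 and 0 with the replicate block), which is close to the share of all tested genes called lower. Dhcr7, which catalyses the last step, fell to 5.19 ± 1.79 FPKM in PAM3CSK4 libraries, against 12.9 ± 2.5 FPKM in PBS libraries (log2 fold change −1.2, SE 0.27, adjusted p = 0.00217). Among 32 genes of lipid handling and targets of the sterol receptor LXR 9 were called lower and 5 higher, against 22.6% and 5.62% overall. After rescaling the counts were 5 and 6, and with the replicate block 15 and 5. Abca1, the cholesterol exporter, had 19.5, 60.1, 75.4 and 75.5 FPKM in PAM3CSK4 libraries, against 7.45, 17.9, 21.3 and 29.9 FPKM in PBS libraries (log2 fold change 1.51, SE 0.54, adjusted p = 0.0424). Acsl4, which activates polyunsaturated fatty acids, rose to 122 ± 50.5 FPKM in PAM3CSK4 libraries, against 41.6 ± 15.1 FPKM in PBS libraries (log2 fold change 1.48, SE 0.44, adjusted p = 0.0165). Fabp4, a fatty acid binding protein, fell to 318 ± 88.4 FPKM in PAM3CSK4 libraries, against 758 ± 162 FPKM in PBS libraries (log2 fold change −1.26, SE 0.22, adjusted p = 0.000288), and its relative Fabp3 was listed at 0 in all 4 PAM3CSK4 libraries and at 8.83, 5.88, 5.88 and 6.53 FPKM in PBS libraries. The call of Abca1 was lost without PAM3CSK4 2, 3 or 4 or PBS 1, 2 or 3, with an adjusted p of 0.0597 to 0.137, and with no filter on low values (adjusted p = 0.0628). That of Acsl4 was lost without PAM3CSK4 3 or 4 or PBS 1, with an adjusted p of 0.0516 to 0.0594. The number of lipid handling genes called higher was 1 without PAM3CSK4 3 or PBS 1, 2 without PAM3CSK4 2 or 4 or PBS 2 and 3 without PBS 3 or 4.

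Genes of the unfolded protein response had 7 of 26 tested members called higher and 0 lower (15 and 0 after rescaling, 13 and 0 with the replicate block). Hspa5, the chaperone BiP of the endoplasmic reticulum, had 494, 885, 746 and 1183 FPKM in PAM3CSK4 libraries, against 267, 379.8, 303 and 442 FPKM in PBS libraries (log2 fold change 1.21, SE 0.32, adjusted p = 0.00836). Dnajb9 and Ddit3, which encodes the factor CHOP, rose by log2 1.12 and 0.99. Ppp1r15a, which restores translation, rose to 141 ± 30.2 FPKM in PAM3CSK4 libraries, against 60.6 ± 12.5 FPKM in PBS libraries (log2 fold change 1.2, SE 0.26, adjusted p = 0.00182). Of 25 genes of the amino acid response 4 were called higher and 5 lower, against 5.62% and 22.6% of all tested genes. After rescaling the counts were 8 and 3. Atf4, its main transcription factor, rose to 386 ± 37.2 FPKM in PAM3CSK4 libraries, against 248 ± 18.8 FPKM in PBS libraries (log2 fold change 0.64, SE 0.11, adjusted p = 0.000189), while Phgdh and Psat1, enzymes of serine synthesis, fell by 1.65 and 0.90 on the log2 scale. Nupr1, a stress-induced nuclear protein, rose to 158 ± 62.4 FPKM in PAM3CSK4 libraries, against 48.6 ± 12 FPKM in PBS libraries (log2 fold change 1.65, SE 0.30, adjusted p = 0.000367). The call of Psat1 was lost without PAM3CSK4 1 or PBS 3, with an adjusted p of 0.0534 to 0.0612. The number of amino acid response genes called lower was 3 without PAM3CSK4 1 or PBS 3.

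Genes of DNA replication and cell division fell almost without exception. Of 50 tested genes of DNA replication and entry into S phase 49 were called lower and 0 higher (46 and 0 after rescaling), with a median log2 fold change of −1.81. Mcm5 had 0.719, 5.18, 4.65 and 2.8 FPKM in PAM3CSK4 libraries, against 17.2, 37.5, 28.5 and 26 FPKM in PBS libraries (log2 fold change −2.81, SE 0.45, adjusted p = 0.000114). Dut, which removes dUTP, had 3.73, 8.33, 5.38 and 4.26 FPKM in PAM3CSK4 libraries, against 74.5, 66, 49.9 and 34.8 FPKM in PBS libraries (log2 fold change −3.15, SE 0.34, adjusted p = 1.19e-06), and Rrm2, the ribonucleotide reductase subunit that limits the nucleotide supply, had 10.6, 19.2, 17.5 and 13.2 FPKM in PAM3CSK4 libraries, against 85.5, 122, 120 and 106 FPKM in PBS libraries (log2 fold change −2.79, SE 0.27, adjusted p = 3.16e-07). PAM3CSK4 1 had the lowest level of each. Pcna, the sliding clamp, fell to 40.9 ± 6.85 FPKM in PAM3CSK4 libraries, against 134 ± 9.19 FPKM in PBS libraries (log2 fold change −1.70, SE 0.13, adjusted p = 2.8e-08).

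Of 59 tested genes of mitosis 58 were called lower and 1 higher (57 and 1 after rescaling), with a median log2 fold change of −2.29. Cdk1 had 1.87, 11.2, 7.39 and 4.69 FPKM in PAM3CSK4 libraries, against 65.6, 82.4, 68.7 and 55.9 FPKM in PBS libraries (log2 fold change −3.42, SE 0.35, adjusted p = 6.26e-07). Plk1, the mitotic polo kinase, had 0.508, 5.74, 2.72 and 1.72 FPKM in PAM3CSK4 libraries, against 24.9, 41.3, 34.4 and 24.3 FPKM in PBS libraries (log2 fold change −3.31, SE 0.35, adjusted p = 1.2e-06), and Ccna2, cyclin A2, had 2.07, 11.9, 6.6 and 4.66 FPKM in PAM3CSK4 libraries, against 46.6, 58.9, 51.8 and 43.7 FPKM in PBS libraries (log2 fold change −2.99, SE 0.34, adjusted p = 2.77e-06). Spc25 was listed at 0 in PAM3CSK4 1, with 0, 2, 2.13 and 0.48 FPKM in PAM3CSK4 libraries, against 18.2, 26.7, 19.8 and 18 FPKM in PBS libraries (log2 fold change −3.47, SE 0.33, adjusted p = 3.39e-07). The proliferation marker Mki67 had 1.33 ± 0.412 FPKM in PAM3CSK4 libraries and 13.5 ± 2.92 FPKM in PBS libraries (log2 fold change −2.63, SE 0.23, adjusted p = 1.14e-07). The exception was Cks2, a small partner of cyclin-dependent kinases, with 189, 174, 148 and 145 FPKM in PAM3CSK4 libraries, against 120.3, 84.7, 89.6 and 88.2 FPKM in PBS libraries (log2 fold change 0.77, SE 0.23, adjusted p = 0.0164). The call of Cks2 was lost without PBS 2, with an adjusted p of 0.0507.

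Cell cycle motifs were counted in the same windows. The TTTGAA element was present in the windows of 26 of 50 mitotic genes (52.0%) and 747 of 7323 tested genes (10.2%), and CCAAT in 35 of 50 (70.0%) and 2668 of 7323 (36.4%). The E2F motif was present in 9 of 40 replication genes (22.5%) and 204 of 7323 tested genes (2.79%). Over all 27457 RefSeq windows the shares were 16% for TTTGAA, 34.3% for CCAAT, 1.26% for E2F, 6.41% for kappaB, 6.36% for AP-1 and 3.29% for the interferon element. A match of these letters is not evidence of binding.

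Regulators that start and stop the cycle changed on both sides. Of 22 tested cyclins, CDK inhibitors and p53 targets 8 were called lower and 3 higher (6 and 4 after rescaling). The shares of all tested genes were 22.6% lower and 5.62% higher, or 13.4% and 12.1% after rescaling. Ccnd1, cyclin D1, which growth factor receptors induce, had 30.1, 24.5, 35.6 and 34.2 FPKM in PAM3CSK4 libraries, against 196, 232, 187 and 223 FPKM in PBS libraries (log2 fold change −2.72, SE 0.17, adjusted p = 8.4e-10). Cdk4, its kinase, fell to 34 ± 4.33 FPKM in PAM3CSK4 libraries, against 85.6 ± 7.99 FPKM in PBS libraries (log2 fold change −1.31, SE 0.13, adjusted p = 6.61e-07), and Cdkn2c, which encodes the inhibitor p18, fell to 0.732 ± 0.403 FPKM in PAM3CSK4 libraries, against 7.2 ± 3.29 FPKM in PBS libraries (log2 fold change −2.17, SE 0.29, adjusted p = 1.61e-05). The increases were 3 inhibitors of the cycle. Cdkn2b, which encodes p15, had 23.8, 44.8, 47.7 and 57.1 FPKM in PAM3CSK4 libraries, against 2.88, 5.71, 5.01 and 6.01 FPKM in PBS libraries (log2 fold change 2.88, SE 0.35, adjusted p = 4.82e-06), Cdkn2a rose to 10.3 ± 3.4 FPKM in PAM3CSK4 libraries, against 1.4 ± 0.601 FPKM in PBS libraries (log2 fold change 2.23, SE 0.28, adjusted p = 8.11e-06), and Cdkn1a, which encodes p21, rose to 132 ± 9.92 FPKM in PAM3CSK4 libraries, against 67.4 ± 10.4 FPKM in PBS libraries (log2 fold change 0.97, SE 0.18, adjusted p = 0.000495).

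**Figure D4:**
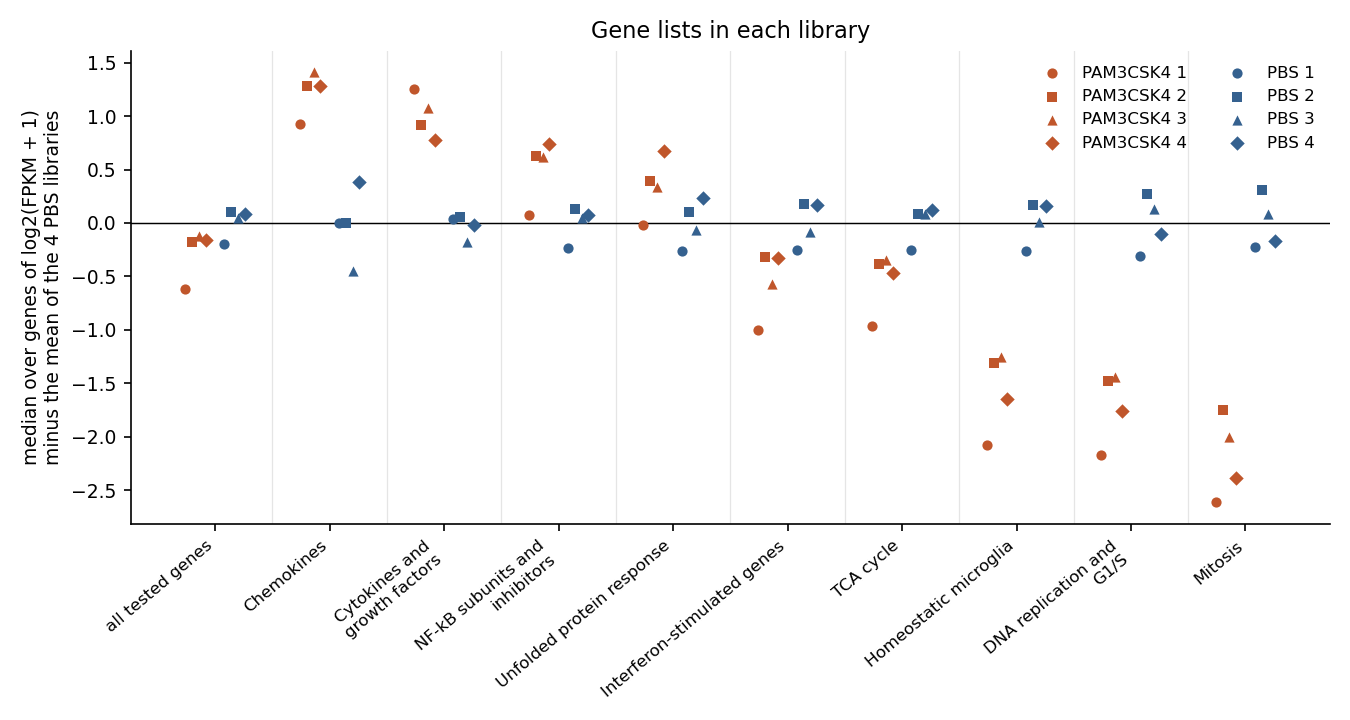
Median of each gene list in each library, as log2(FPKM + 1) minus the mean of the 4 PBS libraries, with PAM3CSK4 in orange left of PBS in blue and 1 symbol for each replicate number. The PAM3CSK4 medians of mitosis run from −2.61 to −1.75 and those of chemokines from 0.93 to 1.41, outside the PBS values of −0.22 to 0.31 and −0.45 to 0.38.

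Among the lists plotted by library PAM3CSK4 1 had the lowest median of its group in all but the cytokine list. Its median over all tested genes was −0.62 relative to PBS, against −0.18 to −0.12 in PAM3CSK4 2 to 4, and −0.20 in PBS 1 against 0.05 to 0.10 in PBS 2 to 4. Homeostatic microglial genes had medians of −2.08 in PAM3CSK4 1 and −1.65 to −1.25 in the other 3, and DNA replication genes of −2.17 and −1.76 to −1.44. The NF-kB list had a median of 0.07 in PAM3CSK4 1 and 0.62 to 0.74 in PAM3CSK4 2 to 4, while the cytokine list was highest in PAM3CSK4 1 (1.25 against 0.78 to 1.08). Without PAM3CSK4 1 there were 584 genes called higher and 1656 lower, and within the larger set of libraries, which holds neither PAM3CSK4 1 nor PBS 1, 1039 and 3240.

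Few genes passed the test between PAM3CSK4 and the other TLR agonists. Against LPS, which is sensed by TLR4, 3 of 8858 genes (0.0339%) were called, and 343 had an unadjusted p under 0.05. Ccl5, a chemokine for T cells and monocytes, was 2.31, 3.5, 6.28 and 8.21 FPKM with PAM3CSK4, against 40.3, 38.6, 25.5 and 25 FPKM with LPS (log2 fold change −2.54, SE 0.41, adjusted p = 0.0364). Il10 was 16.2, 17.5, 8.94 and 18.5 FPKM with PAM3CSK4, against 3.91, 2.51, 4.78 and 4.45 FPKM with LPS (log2 fold change 1.71, SE 0.29, adjusted p = 0.0364). Both genes had been called higher with PAM3CSK4 than with PBS. Genes called between agonists were named only where the libraries did not overlap, so their separation was set by that choice. Calm3, a calmodulin gene with near copies in the genome, was 34.6, 43.1, 43.7 and 38.9 FPKM with PAM3CSK4, against 66.0, 70.3, 63.3 and 75.2 FPKM with LPS (log2 fold change −0.77, SE 0.13, adjusted p = 0.0364). The zymosan means of Ccl5, Il10 and Calm3 were 5.08, 10.6 and 49.9 FPKM, beside 5.08, 15.3 and 40.1 FPKM with PAM3CSK4. None of the 3 genes was called between PAM3CSK4 and zymosan. The calls rest on few libraries, since 0 genes were called without PAM3CSK4 1 or without PAM3CSK4 2, 1 without PAM3CSK4 3, 2 without PAM3CSK4 4 and 0 with a pseudocount of 0.1 FPKM. With the replicate block 7 genes were called, among them Cd36, with 3.41, 7.52, 9.43 and 3.34 FPKM with PAM3CSK4 and 0.943, 1.14, 2.02 and 1.27 FPKM with LPS (log2 fold change 1.48, SE 0.21, adjusted p = 0.0083). Cd36 had a mean of 5.66 FPKM with zymosan, beside 5.93 FPKM with PAM3CSK4. PAM3CSK4 2 and LPS 2 lay in different library sets, and whether the numbers pair PAM3CSK4 with LPS libraries was not tested.

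Against zymosan, which is sensed by TLR2 and dectin-1, 0 genes passed in limma, where the lowest adjusted p was 0.26 and 299 genes had an unadjusted p under 0.05. With the replicate block 8 genes were called. Cd69 was 116, 173, 128 and 184 FPKM with PAM3CSK4, against 39.4, 53.1, 32.0 and 83.4 FPKM with zymosan (log2 fold change 1.58, SE 0.23, adjusted p = 0.0265). Batf was 57.3, 44.3, 34.1 and 37.6 FPKM with PAM3CSK4, against 25.4, 22.5, 19.8 and 21.5 FPKM with zymosan (log2 fold change 0.90, SE 0.15, adjusted p = 0.0429). Both were picked among calls without overlap, while the libraries of Trem2, S100a5 and Dab2, also called, did overlap. With LPS the means were 111 FPKM for Cd69 and 37.8 FPKM for Batf, beside 150 and 43.3 FPKM with PAM3CSK4. Neither gene was called between PAM3CSK4 and LPS. A test that misses its threshold does not show that the agonists act alike. The 95% interval of the difference lay within 1 log2 unit of 0 for 77.9% of genes against LPS and 82.1% against zymosan. Against morphine, an opioid receptor agonist, 2195 genes (24.8%) were called, and 3310 with the replicate block.

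**Figure D5:**
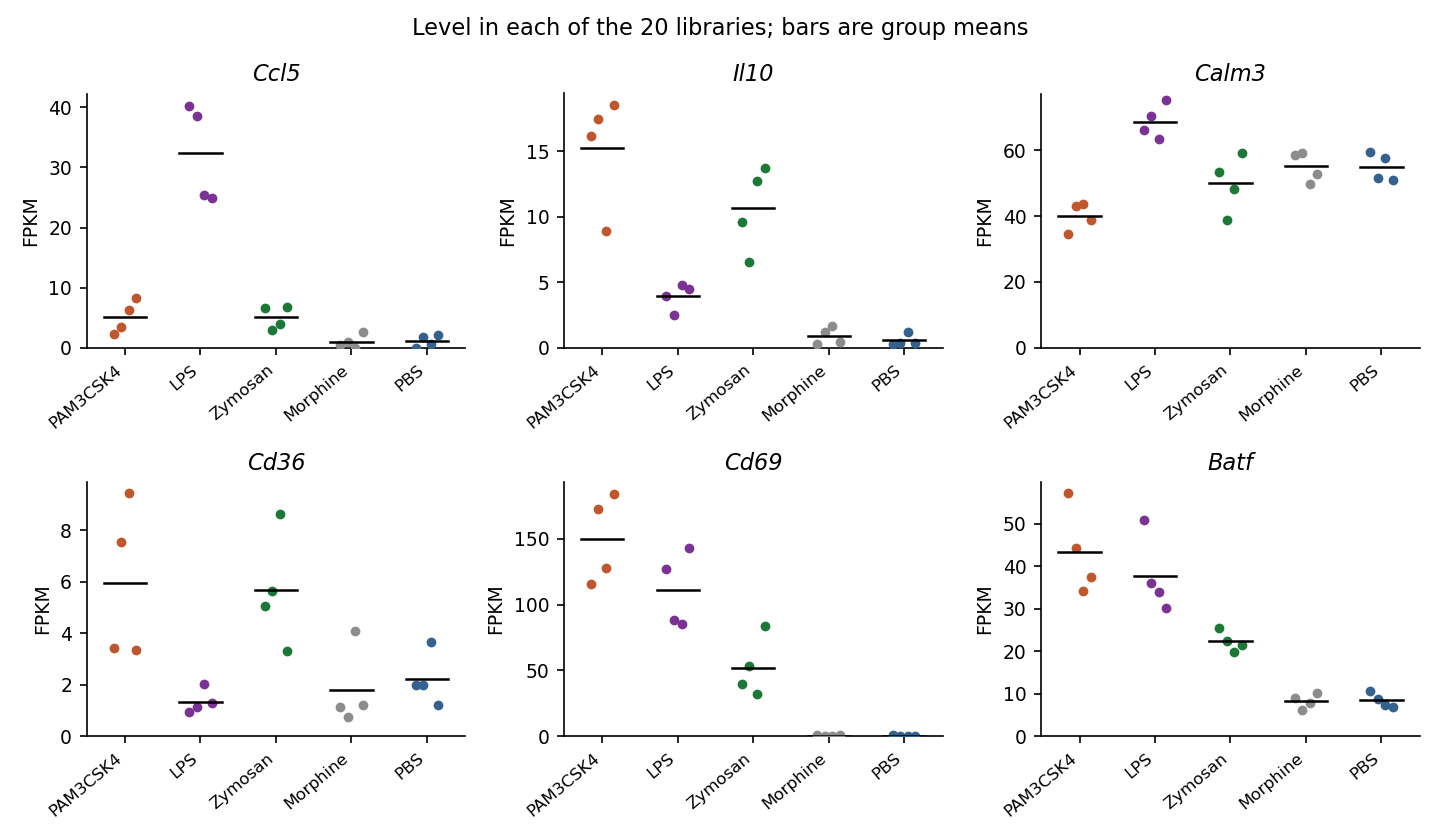
Level in FPKM of 6 genes in each of the 20 libraries, by treatment, with bars at the group means. Ccl5 is 2.31 to 8.21 FPKM with PAM3CSK4 and 25 to 40.3 FPKM with LPS, Il10 is 8.94 to 18.5 and 2.51 to 4.78 FPKM, and Cd69 is 116 to 184 FPKM with PAM3CSK4 and 32.0 to 83.4 FPKM with zymosan.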

How the data were processed

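RNA purified with RNeasy Micro columns was made into Smart-Seq2 and Nextera XT libraries, per the labels' protocols. The authors deposited FPKM values of 17310 gene symbols in 20 libraries. Tools named, per the submitters' processing notes, are Cufflinks 2.2.1, HISAT2 2.0.5.1, featureCounts 1.4.6 and DESeq2, and the build is rn6. The notes used here assign them no role. Annotation, strand and absolute depth are not given in the sources used here. FPKM is relative to each library's total, so large increases lower all other values. Relative depth was read from the steps between values under 1 FPKM (ratios within 0.01 log2), and the table's FPKM sums were 306075 to 397357 per library. Symbols were spelled after RefSeq GRCr8 (14814 by symbol, 2113 by synonym, 383 unmatched), and no coordinates but those of the promoter windows were taken from it.

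Values were tested as log2(FPKM + 1), which understates changes of low genes, over genes reaching 1 FPKM in 4 or more of the 20 libraries. By this filter 85 genes entered with exactly 4 such libraries, Dtwd2 lying just inside (the lowest of its 4 highest values was 1.001 FPKM), and 85 with exactly 3 did not, Gprasp1 lying just outside (0.999 FPKM by the same measure). Of the tested genes 162 reached 1 FPKM in no PBS library and 371 in fewer than 4 of the 8 libraries. The test was limma 3.58.1 in R 4.3.3, two-sided, with a mean for each of the 5 groups, all 20 libraries in 1 fit and variances moderated toward a trend on mean level. The Benjamini-Hochberg adjustment ran over all 8858 genes tested. Every adjusted p in the text is from limma, and every SD is over 4 libraries. The fit was tested on simulated data with independent errors. The libraries here share deviations, so that test cannot show that the p-values hold for them. Whether the 4 libraries of each group were grown from different animals or wells is not in the labels, so p-values refer only to the spread among these libraries, which may be technical.

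Replicate numbers come from the labels. Deviations from the group means correlated at 0.74, 0.37, 0.45 and 0.56 between PAM3CSK4 and PBS libraries of the same number, so that the numbers may pair these samples. The main fit held no term for this pairing. Its SEs, adjusted p and counts are therefore unpaired, and only the replicate block takes the numbers into account. Pairing of the other groups was not tested, although the block shares the effect of each number across all 5 groups. An exact 0 can be a failed estimate, and 41 such values in 21 tested genes stood beside 5 FPKM or more in the other 3 libraries. No fold is given where a group is at 0 throughout. Similar genes (Cxcl1, Cxcl2 and Cxcl3, Ccl3 and Ccl4, Ccl2, Ccl7 and Ccl12, the Mmp and Fcgr genes, RT1 genes, Calm3) are uncertain.

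The gene lists, 37 in all, and the members were chosen with earlier results of these data known. Genes were named by rule. The rule took the 30 largest called increases and the 30 largest called decreases. These had no overlap between groups and a mean of 5 FPKM or more in the higher group. On the same conditions it took the calls against LPS and zymosan with the smallest p. It further took up to 5 called members per list and direction with the smallest p, and the TLR2 receptor list. Last, the rule took the 10 most abundant genes called higher. The cell type markers and Arsb, Ccl4, Ctsd, Cxcl10, Ddit3, Ebi3, Hif1a, Ifnb1, Il1rn, Il23a, Myd88, Nlrp3, Rn18s, Slco2b1, Tnf and Tyrobp were named outside it, after their values were seen. Some genes that the rule names are not reported here. The fit was repeated with a pseudocount of 0.1 FPKM, no filter, a filter over the 8 libraries, median-ratio rescaling, library quality weights, the replicate block, a fit to the 8 libraries, a term for the library sets (the sign of the first principal component of the residuals, 63.2% of their variance), the larger set of 13 libraries, isolated zeros as missing, and leaving out each library. Plots were drawn with matplotlib 3.10.9 in Python 3.11.15.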

Additional observations from a re-analysis of the deposited data

Results flagged for a closer look

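In each named gene and group, the gap between the most extreme of the 4 libraries and its nearest neighbour was set against the group's whole range. In 30 of 411 sets of 4 values this share was above Dixon's 95% critical value for 4 samples, which chance exceeds in about 1 of 20 sets. PAM3CSK4 1 stood apart as the lowest library of its group in Atf4 (0.87), Cd44 (0.879), Cflar (0.896), Csf1r (0.867), Hip1r (0.854), Il1a (0.86), Map3k14 (0.836) and Map3k8 (0.969). PAM3CSK4 1 stood apart as the highest library of its group in Ddit3 (0.907), Ebi3 (0.873) and Mt2A (0.886). PAM3CSK4 4 stood apart as the highest library of its group in Gusb (0.839), Slc40a1 (0.886) and Trem2 (0.859). PBS 1 stood apart as the lowest library of its group in Cflar (0.857), Tlr6 (0.9) and Tnfrsf1b (0.962). PBS 1 stood apart as the highest library of its group in Cks2 (0.863), Gpx3 (0.85), Spr (0.94), Tyrobp (0.861) and Wfdc21 (1). PBS 2 stood apart as the highest library of its group in Hhex (0.865), Mmp13 (1) and Siglec5 (0.991). PBS 3 stood apart as the highest library of its group in Il10 (0.901). PBS 4 stood apart as the highest library of its group in Cat (0.888), Pf4 (0.834), Ptges (1) and Ptgs2 (0.99). The genes share libraries, so these sets are not independent.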

How the results depend on the processing

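Of the 2496 genes called, 1998 lower and 498 higher, the counts with a term for the library sets were 4513 (934 higher, 3579 lower), with library quality weights 4297 (1025 and 3272) and within the larger set of libraries 4279 (1039 and 3240). Median-ratio rescaling gave 1069 higher and 1191 lower and gave a median log2 fold change of 0, against −0.27 as reported. The replicate block gave 753 higher, and 3617 calls in all. Leaving out each library in turn gave 1931 to 2421 calls, 407 to 584 higher and 1516 to 1993 lower, with medians of −0.34 to −0.16. Against LPS the 3 calls became 11 with the set term, 7 with the replicate block, 0 with a pseudocount of 0.1 FPKM and 0 to 2 without 1 PAM3CSK4 library. Against zymosan the 0 calls became 8 with the set term and 8 with the replicate block, and leaving out PAM3CSK4 libraries gave 0 each time. Against morphine 2195 became 3998 with the set term and 3310 with the replicate block, and 1797 to 2302 without 1 PAM3CSK4 library. The other alternatives kept these counts within 1.5 times. Of 195 named genes called, 173 kept the call under every alternative that tested them, 4 of the 195 were not tested under the filter over the 8 libraries, and 0 changed sign. Rescaling ended 5 of these calls (Calm3, Cd14, Clec7a, Cxcl16 and Tlr8), and the replicate block changed the call of no named gene but Nlrp3 and Mrc1. The log2 fold changes of Il1rn (0.05), Spi1 (0.15) and Tyrobp (0.06), which were not called, had the other sign after rescaling. The cause of these movements was not tested. Relative depth was 55.8% to 100% of that of PBS 2, and absolute depth, and with it counting error, is not known here.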

Other observations

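Several of the 30 largest increases and decreases belonged to none of the 37 gene lists. Wfdc21, which encodes a small secreted protein with a whey acidic protein fold, had 36.8, 22.3, 15 and 19.2 FPKM in PAM3CSK4 libraries, against 0.852, 0, 0 and 0 FPKM in PBS libraries (log2 fold change 4.31, SE 0.33, adjusted p = 2.48e-08). Hip1r, an adaptor between clathrin and actin, had 5.61, 22.2, 20.5 and 23 FPKM in PAM3CSK4 libraries, against 0.0964, 0.513, 0.552 and 0.367 FPKM in PBS libraries (log2 fold change 3.61, SE 0.46, adjusted p = 7.64e-06). Hspa1b, an inducible heat shock protein, had 11.4, 42.4, 24.6 and 38.2 FPKM in PAM3CSK4 libraries, against 0.504, 1.66, 0.89 and 2.6 FPKM in PBS libraries (log2 fold change 3.57, SE 0.52, adjusted p = 4.02e-05), and its reads can be shared with a near-identical copy. Pld4, an exonuclease of endolysosomes, had 9.6, 17.9, 16 and 4.92 FPKM in PAM3CSK4 libraries, against 157, 203, 147 and 40 FPKM in PBS libraries (log2 fold change −3.31, SE 0.63, adjusted p = 0.000534). Dhrs9, a retinol dehydrogenase, had 4.09, 9.16, 8.66 and 7.1 FPKM in PAM3CSK4 libraries, against 58.3, 84, 66 and 64 FPKM in PBS libraries (log2 fold change −3.10, SE 0.27, adjusted p = 9.41e-08). Atp2a3, the calcium pump SERCA3, and Gna15, a G protein alpha subunit, fell by 3.01 and 2.83 on the log2 scale. The nuclear lamin gene Lmnb1 had 0, 2.79, 1.53 and 1.62 FPKM in PAM3CSK4 libraries, against 8.42, 24, 14.6 and 12.1 FPKM in PBS libraries (log2 fold change −2.73, SE 0.47, adjusted p = 0.00021).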
